A study of Mus musculus with 9 samples.

Results

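The genes described here are 9 genes of fatty acid synthesis and its control in the liver, together with Pnpla3, the gene of a lipid droplet protein. They were chosen by symbol from the deposited expression table, with earlier results of these data known. They are Fasn, Acaca, Acacb, Acly, Scd1, Elovl6, Me1, Pnpla3, Thrsp and Mlxipl, which makes 10 of 22701 genes. The study profiled liver RNA of 9 mice at 5 weeks of age, of a strain background labelled C57BL/6 and 129svPas. HP1ag_KO mice (3 livers) lacked HP1α in the whole animal (HP1a-/-) and HP1γ in the liver (HP1gliver-/-), HP1a_KO mice (2 livers) lacked HP1α only, and the HP1ab_KO mouse (1 liver) lacked HP1α in the whole animal and HP1β in the liver (HP1bliver-/-). WT mice (3 livers) carried none of these deletions, so all 6 mutant livers shared the loss of HP1α. The labels do not name the promoter that drove the liver deletions, and they give an animal number for each library with no word on litter, sex, feeding or the hour of dissection. HP1α, HP1β and HP1γ are heterochromatin proteins, and the design compares liver RNA between mice that lack 1 of them, 2 of them or none.

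In liver, fatty acids are made in the cytosol from acetyl-CoA that is exported from mitochondria as citrate and released by ATP citrate lyase (Acly). Acetyl-CoA carboxylases (Acaca, Acacb) turn it into malonyl-CoA, fatty acid synthase (Fasn) builds palmitate with NADPH that malic enzyme (Me1) helps to supply, and Elovl6 and Scd1 lengthen and desaturate the product. The pathway is induced by feeding through the transcription factors SREBP-1c, encoded by Srebf1, and ChREBP, encoded by Mlxipl, and Pnpla3 is known in mouse liver as a gene that follows the same feeding signals.

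Values are numbers of reads per gene after division by each library's size factor (normalised reads). Sequencing depth was 26375545 to 36161177 gene reads in 8 libraries and 16266423 in HP1a_KO replicate 1. RNA of the targeted genes was lower where the labels give a deletion, but not absent, and protein was not measured here. Cbx5, which encodes HP1α, had 663 to 813 normalised reads in HP1ag_KO livers, 501 and 576 in HP1a_KO livers and 663 in the HP1ab_KO liver, against 997 to 1542 in WT livers. Cbx3 (HP1γ) had 326 to 380.0 in HP1ag_KO livers and 536 to 641 in WT livers, and Cbx1 (HP1β) had 217 in the HP1ab_KO liver and 803 to 1082 in WT livers. Cbx1 was also at 690 to 856 in HP1ag_KO livers and at 457 and 771 in HP1a_KO replicates 1 and 2, in which HP1β was not deleted by the labels. The 7 hepatocyte markers in the table, such as Alb, were abundant, with a summed level of 3079079 to 3264399 normalised reads in HP1ag_KO livers and 2492627 to 3238113 in WT livers. Adipose tissue also makes fatty acids, and its markers Adipoq, Plin1, Cfd and Retn were at 0 to 3.81 normalised reads in every library. The list's other 5 genes in the table, Fabp4, Cidec, Lpl, Car3 and Pck1, reached the mean of 10 needed for testing. Of these, 3 were higher and 2 lower in HP1ag_KO than in WT livers (median log2 difference 0.083), and limma and DESeq2 called 0. The 9 genes of the adipocyte list in the table summed to 138195 to 168629 in HP1ag_KO livers, 150187 to 178283 in HP1a_KO livers and 161257 in the HP1ab_KO liver, against 143359 to 179212 in WT livers, most of it from Pck1 and Car3, which hepatocytes also express. In bulk tissue, fewer cells of a type and less RNA per cell cannot be told apart.

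Promoter windows are shown for the 4 genes whose levels the results turn on, so that the elements near their start sites can be read beside the values. Each window runs from 250 bases before to 50 bases after a RefSeq start site on GRCm38.p6, on the gene's own strand. Capitals mark a match on either strand to the E-box CACGTG, the sterol element TCACNCCAC, the CCAAT box CCAAT or the GC box GGGCGG.
Pnpla3, chr15:84167566-84167865, plus strand: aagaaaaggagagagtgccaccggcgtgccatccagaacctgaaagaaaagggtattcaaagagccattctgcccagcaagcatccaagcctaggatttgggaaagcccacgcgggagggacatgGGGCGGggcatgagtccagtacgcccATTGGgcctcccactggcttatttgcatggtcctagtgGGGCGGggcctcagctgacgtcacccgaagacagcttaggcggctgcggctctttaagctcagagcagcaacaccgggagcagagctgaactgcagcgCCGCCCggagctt
Fasn, chr11:120824498-120824797, minus strand: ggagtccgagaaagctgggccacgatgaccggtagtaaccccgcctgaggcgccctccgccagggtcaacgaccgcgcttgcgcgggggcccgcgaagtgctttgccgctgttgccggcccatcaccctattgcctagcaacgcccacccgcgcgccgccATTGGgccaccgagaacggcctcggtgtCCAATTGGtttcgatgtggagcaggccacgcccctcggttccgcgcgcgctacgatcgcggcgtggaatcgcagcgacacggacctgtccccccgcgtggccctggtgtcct
Acly, chr11:100527951-100528250, minus strand: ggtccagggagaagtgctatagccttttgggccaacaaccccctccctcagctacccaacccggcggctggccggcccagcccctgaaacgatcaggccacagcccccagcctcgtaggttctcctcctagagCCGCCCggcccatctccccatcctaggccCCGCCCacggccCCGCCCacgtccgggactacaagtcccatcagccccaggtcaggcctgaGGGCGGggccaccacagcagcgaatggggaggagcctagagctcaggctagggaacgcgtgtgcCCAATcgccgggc
Mlxipl, upstream window, chr5:135089640-135089939, plus strand: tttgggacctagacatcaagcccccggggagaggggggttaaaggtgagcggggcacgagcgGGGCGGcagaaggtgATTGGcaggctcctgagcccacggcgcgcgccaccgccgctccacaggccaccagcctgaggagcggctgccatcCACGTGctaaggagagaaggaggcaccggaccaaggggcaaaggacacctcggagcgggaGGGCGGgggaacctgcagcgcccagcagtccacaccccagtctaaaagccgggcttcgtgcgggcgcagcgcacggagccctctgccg
Mlxipl, downstream window, chr5:135106641-135106940, plus strand: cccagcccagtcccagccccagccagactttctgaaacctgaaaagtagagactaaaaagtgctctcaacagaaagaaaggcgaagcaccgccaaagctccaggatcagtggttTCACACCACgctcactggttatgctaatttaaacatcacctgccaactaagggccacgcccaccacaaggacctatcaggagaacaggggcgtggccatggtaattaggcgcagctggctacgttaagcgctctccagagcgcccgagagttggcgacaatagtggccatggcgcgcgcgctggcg

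The Pnpla3 window held 3 GC boxes and 1 CCAAT box, which lies at positions -99 to -95 from the start site on the opposite strand. Fasn had 3 CCAAT boxes in its window, of which those at -62 to -58 and -59 to -55 overlap on opposite strands. In the Acly window there were 4 GC boxes and a CCAAT box that began 38 bases after the start site. An E-box was found only in the upstream window of Mlxipl, at -98 to -93, and a sterol element only in its downstream window, at -136 to -128, among the 11 windows of the 9 genes that had one in the table. Of all 32851 promoter windows of the same length, 7.15% held an E-box, 1.24% a sterol element, 37.4% a CCAAT box and 35.7% a GC box. CCAAT boxes were present in 7 and GC boxes in 4 of the 9 genes, and these matches describe letters, not binding. These counts are per gene over 11 windows, whereas the shares are per window, so they are not on the same measure.

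**Figure D1:**
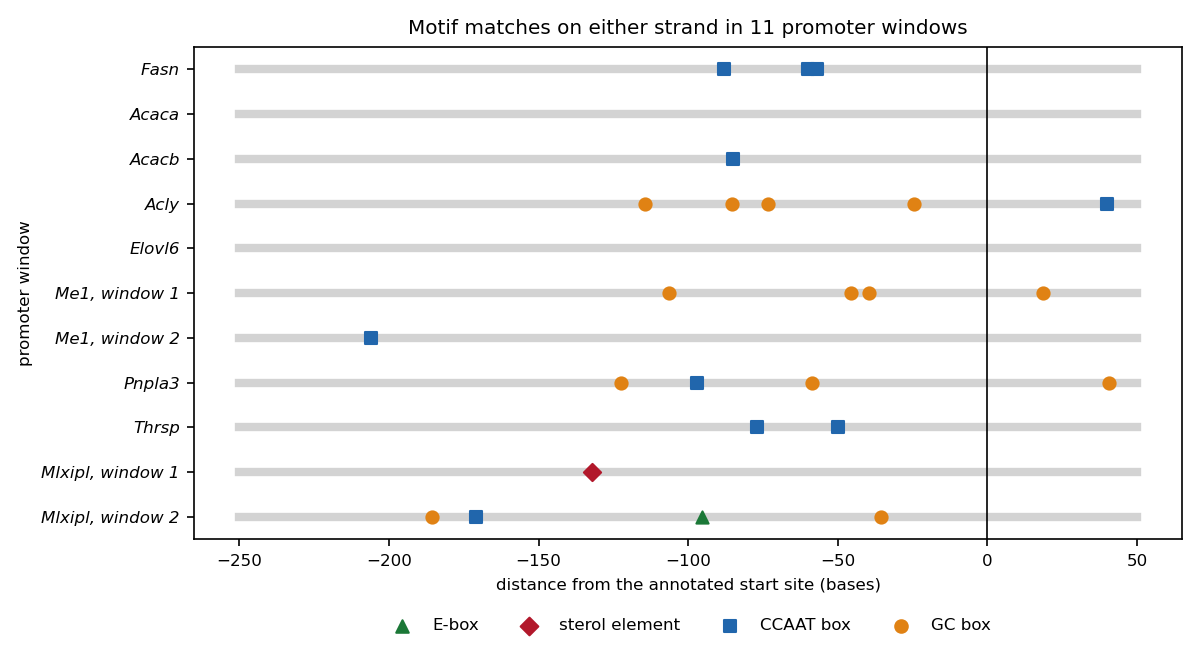
Positions of motif matches on either strand in 11 promoter windows of 9 genes, in bases from the annotated start site at 0, with 1 grey bar per window and 1 symbol per match. CCAAT boxes lie in windows of 7 genes, and the E-box and the sterol element occur once each, in the 2 windows of Mlxipl.

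Per kilobase of annotated exon, the 10 genes covered a wide range of levels in these livers. Scd1, the desaturase that makes oleate and palmitoleate, stood far above the rest with a mean of 35121 normalised reads per kb over the 9 livers. Thrsp (3549), Acly (2295), Fasn (1641) and Me1 (1142) followed, and Elovl6 (615), Mlxipl (545), Acaca (519.6) and Acacb (437) lay close together. Pnpla3 was the least abundant by a wide margin, with 59.9 ± 22.8 normalised reads per kb in HP1ag_KO livers and 18.0 ± 7.36 in WT livers (SD, n = 3 each).

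Pnpla3 (ENSMUSG00000041653, chr15:84167837-84187236, plus strand) had the largest log2 difference between HP1ag_KO and WT livers of the 10 genes. It had 72.0, 133 and 72.9 normalised reads in HP1ag_KO livers, 40.4 and 57.6 in HP1a_KO livers and 40.8 in the HP1ab_KO liver, against 17.8, 25.7 and 40.3 in WT livers. All HP1ag_KO livers were above every other liver, and all 6 mutant livers were above all WT livers, the closest pair being 40.4 in HP1a_KO replicate 1 and 40.3 in WT replicate 3. The order of the group means was 92.8 ± 35.2 in HP1ag_KO (SD, n = 3), 49.0 ± 12.2 in HP1a_KO (SD, n = 2), 40.8 in HP1ab_KO and 27.9 ± 11.4 in WT (SD, n = 3).

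**Figure D2:**
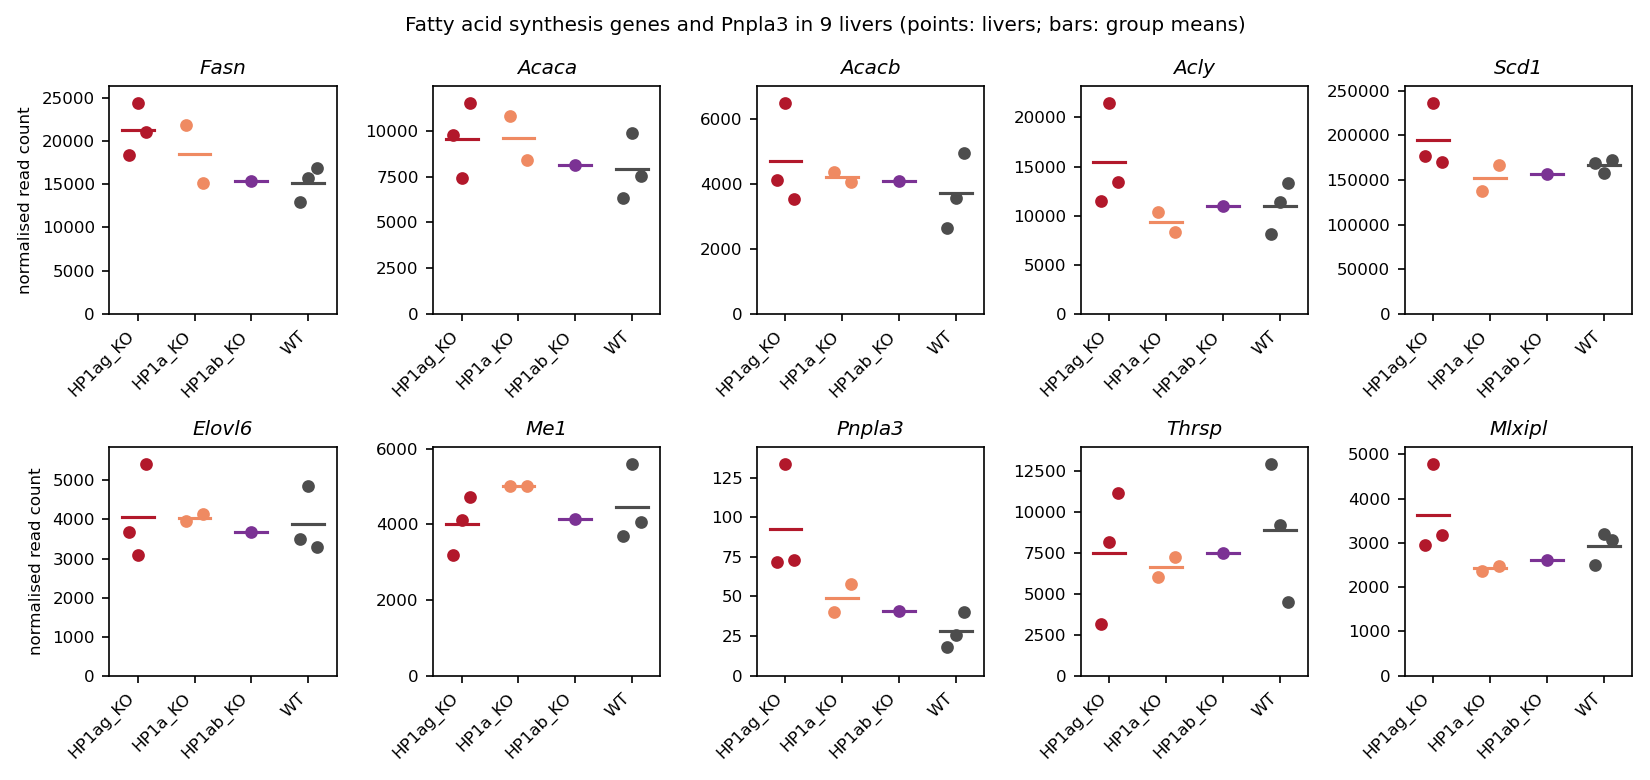
Normalised read counts of the 10 genes in each liver, with 1 panel per gene, 1 point per liver and a bar at each group mean, on linear axes from 0. Pnpla3 and Fasn are the genes whose HP1ag_KO livers all lie above all WT livers, and Thrsp has the widest spread within groups.

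These levels rest on few reads. Pnpla3 had 79, 119 and 77 reads in HP1ag_KO libraries, 22 and 67 in HP1a_KO libraries and 51 in the HP1ab_KO library, against 20, 27 and 43 in WT libraries. On the normalised scale the exact 95% Poisson interval, which covers counting error only, began at 57.0 for the lowest HP1ag_KO liver and ended at 54.2 for the highest WT liver. For HP1a_KO replicate 1 it ran from 25.3 to 61.1, so the gap of that liver to WT replicate 3 lies within counting error.

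Between HP1ag_KO and WT livers, Pnpla3 had a log2 difference of 1.71 ± 0.37 (SE), a 3.27-fold higher level, with a limma p adjusted by Benjamini-Hochberg of 0.394 over the 13845 genes tested. DESeq2, run on whole reads recovered from the table, gave a log2 difference of 1.74 and called the gene at an adjusted p of 0.0121. It was the 1 of 10 genes so called, where 0.716% of all genes tested were. The 10 genes were chosen with earlier results of these data known, so setting them beside that share is not a test. The DESeq2 call was lost without HP1ag_KO replicate 2 (adjusted p = 0.204), WT replicate 1 (0.168) or WT replicate 2 (0.095), with log2 differences of 1.39 to 1.69, so it rests on each of these 3 libraries.

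HP1a_KO livers had a Pnpla3 log2 difference from WT of 0.84 ± 0.41 (SE, limma adjusted p = 0.516). The single HP1ab_KO liver differed by 0.60 ± 0.52, with no replicate of its own. With all 6 mutant livers against the 3 WT livers, the difference was 1.24 ± 0.32 (2.36-fold). An exact two-sided permutation test over the 84 splits gave p = 0.0238, where the smallest possible is 0.0119. That p is the smallest among the 10 genes tested this way and is not adjusted over them. Without WT replicate 1 or WT replicate 2 that permutation p was 0.107. For Pnpla3 in this comparison the limma adjusted p was 0.644 and the DESeq2 adjusted p 0.144, and DESeq2 called 0 of the 10 genes and 0.333% of all. Of the 10 genes, 1 (Pnpla3) had no overlap between all mutant and all WT livers, against 3.14% of all genes in either direction. HP1ag_KO livers exceeded HP1a_KO livers in Pnpla3 by 0.87 ± 0.41 (limma adjusted p = 0.341), with an interval of the difference from -0.073 to 1.81 that holds 0. These comparisons share libraries and are not independent of each other.

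The animal numbers in the labels fall into runs, whose meaning is not stated. In one run of close numbers Pnpla3 had 72.0 and 133 normalised reads in HP1ag_KO replicates 1 and 2 and 40.3 in WT replicate 3. In the other run that held both genotypes it had 72.9 in HP1ag_KO replicate 3 and 25.7 in WT replicate 2. With a term for these runs the log2 difference between HP1ag_KO and WT was 1.35 (limma adjusted p = 0.920), and 1.42 by DESeq2 (adjusted p = 0.447). WT replicate 1 shared a run with no HP1ag_KO liver, so it does not enter these differences.

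Pnpla3 lies between Pnpla5, a paralog on the opposite strand, and Samm50, which encodes a subunit of the machinery that inserts proteins into the outer mitochondrial membrane. Pnpla5 had 0.911, 31.4 and 7.57 normalised reads in HP1ag_KO livers, 1.83 and 6.02 in HP1a_KO livers and 3.20 in the HP1ab_KO liver, against 0, 0.952 and 1.87 in WT livers. At these counts, which are 28 reads at most, it fell below the level tested, and its highest value was in the liver with the highest Pnpla3. Samm50 had 1975 to 2139 normalised reads in HP1ag_KO livers, 2207 and 2281 in HP1a_KO livers and 2197 in the HP1ab_KO liver, against 1990.3 to 2074 in WT livers. Its log2 difference was 0.03 ± 0.08 for HP1ag_KO and 0.15 for HP1a_KO, both against WT. All 4 neighbours tested lay higher without overlap in HP1a_KO than in WT livers (median log2 difference 0.46). Of all genes, 29.9% did not overlap between these groups, in either direction. In HP1ag_KO against WT livers, 2 of the 4 were higher (median -0.29). Among the 4 neighbours tested, limma called 0 in any comparison, and DESeq2 called Parvb, which encodes the focal adhesion protein β-parvin, lower in HP1ag_KO than in HP1a_KO livers (log2 difference -1.37, adjusted p = 0.0202). DESeq2 called 3.37% of all genes in that comparison. Cbx5, which all mutant livers lack by the labels, is on the same chromosome as Pnpla3 (chr15:103191544-103239816). The labels name more than 1 strain for the background. The part of strain differences linked to Cbx5 in the levels of Pnpla3 and its neighbours was not tested.

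Across the 10 genes, 8 had a higher mean in HP1ag_KO than in WT livers, where 47.9% of all genes did, and the median log2 difference was 0.28, against -0.011 over all genes. Leaving out 1 library at a time, between 7 and 10 of the 10 were higher, but the sizes of the differences moved. By DESeq2 without HP1ag_KO replicate 2, Acly went from 0.51 to 0.20 and Acacb from 0.35 to 0.048. In that fit Mlxipl went from 0.33 to 0.083 and Scd1 from 0.23 to 0.067. Fasn was then at 0.39 and Pnpla3 at 1.39, while Acaca rose from 0.28 to 0.44 and Elovl6 from 0.072 to 0.24. Me1 and Thrsp stayed below 0. Limma called 0 of the 10 and 0 of all genes in each of the 5 comparisons. In HP1ag_KO against WT, 1050 genes had an unadjusted p under 0.05 by limma (7.58%), of which 2 were among the 10, and edgeR called 0 genes while DESeq2 called 99. Pnpla3 and Fasn were the 2 of 10 genes whose HP1ag_KO livers all lay above the WT livers, where 6.46% of all genes did.

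**Figure D3:**
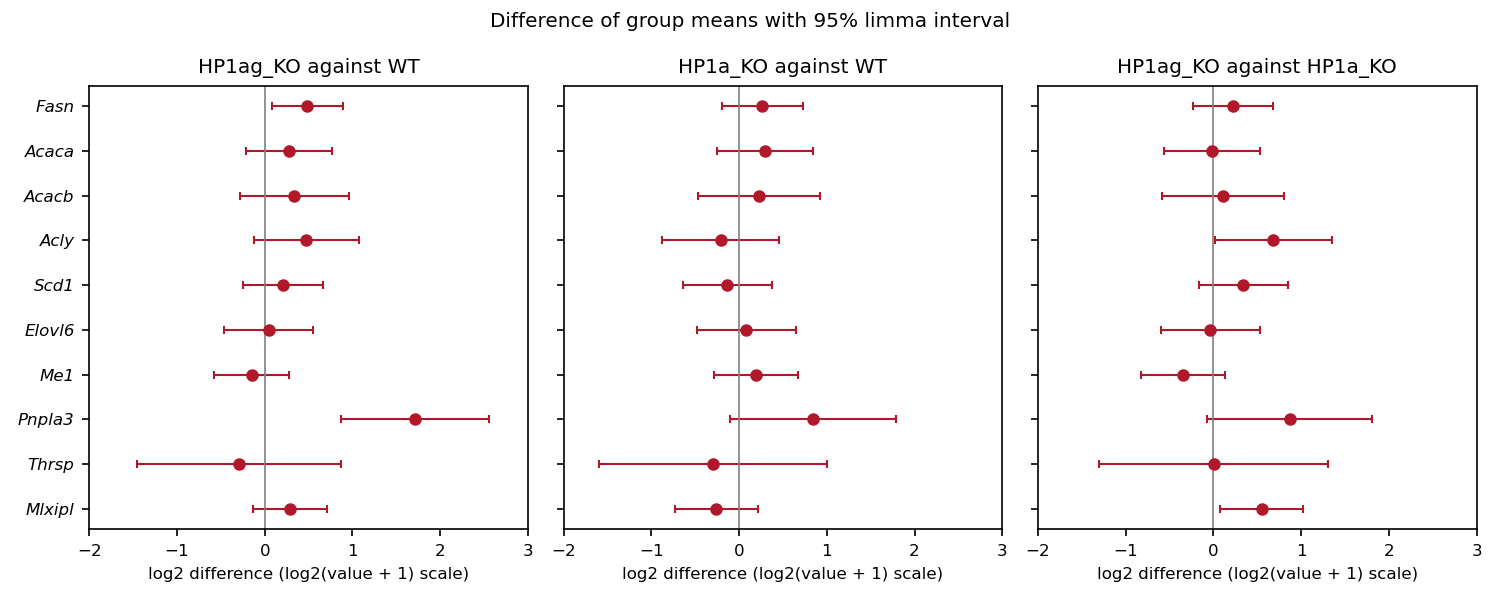
Log2 differences of group means with 95% limma intervals for the 10 genes in HP1ag_KO against WT, HP1a_KO against WT and HP1ag_KO against HP1a_KO, on the log2(value + 1) scale, with 0 marked by a line. The interval leaves out 0 for Pnpla3 and Fasn in the left panel, for no gene in the middle one, and for Acly and Mlxipl in the right one, all before adjustment over the genes tested.

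Of the genes that supply carbon and reducing power, Acly (chr11:100476353-100528000) had 11538, 21479 and 13395 normalised reads in HP1ag_KO livers, 10366 and 8343 in HP1a_KO livers and 11034 in the HP1ab_KO liver, against 8146, 11434 and 13291 in WT livers. HP1ag_KO replicate 2 stood alone at the top, while the other HP1ag_KO livers lay within or just above the WT range. The log2 difference was 0.47 ± 0.26 against WT (limma adjusted p = 0.708) and 0.68 ± 0.29 against HP1a_KO (limma adjusted p = 0.301), with all HP1ag_KO livers above both HP1a_KO livers. Me1 (chr9:86581371-86695953) had 3179.7, 4106 and 4729 in HP1ag_KO livers, 5023 and 5007 in HP1a_KO livers and 4137 in the HP1ab_KO liver, against 3697, 5591 and 4075 in WT livers. Me1 was the 1 gene of the 10 that lay lower without overlap in HP1ag_KO than in HP1a_KO livers, by 0.34 ± 0.21 on the log2 scale (limma adjusted p = 0.455).

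Fasn (chr11:120805846-120824547), the synthase itself, had 18388, 24393 and 21083 normalised reads in HP1ag_KO livers, 21811 and 15100.4 in HP1a_KO livers and 15392 in the HP1ab_KO liver, against 12974, 15697 and 16860.1 in WT livers. Each HP1ag_KO liver was above each WT liver, and the HP1a_KO livers lay 1 above and 1 within the WT range. The log2 difference between HP1ag_KO and WT was 0.49 ± 0.18, a 1.40-fold higher mean, with a limma adjusted p of 0.602 and a DESeq2 adjusted p of 0.364. With the term for runs of animal numbers it was 0.37.

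The carboxylases showed no separation of genotypes. Acaca (chr11:84129672-84401651), the cytosolic form, had 9753, 7436 and 11527 normalised reads in HP1ag_KO livers, 10805 and 8423 in HP1a_KO livers and 8156 in the HP1ab_KO liver, against 6337, 9872 and 7533 in WT livers. Acacb (chr5:114146535-114250761), whose malonyl-CoA restrains fatty acid entry into mitochondria, had 4113, 6502 and 3533 in HP1ag_KO livers, 4370.3 and 4068 in HP1a_KO livers and 4108 in the HP1ab_KO liver, against 2642, 3583 and 4948 in WT livers. HP1ag_KO and WT livers overlapped for both genes, with log2 differences of 0.28 ± 0.21 for Acaca and 0.34 ± 0.27 for Acacb. Their intervals, -0.21 to 0.76 and -0.29 to 0.96, leave room for a difference in either direction. Leaving out 1 library moved Acaca between 0.13 and 0.45 and Acacb between 0.081 (without HP1ag_KO replicate 2) and 0.57 (without WT replicate 3), and with the term for runs of animal numbers Acacb was 0.028.

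Elovl6 (chr3:129532355-129638495), the elongase of palmitate, had 3670.1, 3096 and 5413 normalised reads in HP1ag_KO livers, 3959 and 4134 in HP1a_KO livers and 3683 in the HP1ab_KO liver, against 3495, 4863 and 3299.9 in WT livers. Scd1 (chr19:44394455-44407879) had 176683, 236486 and 170342 in HP1ag_KO livers, 138353 and 166497 in HP1a_KO livers and 157334 in the HP1ab_KO liver, against 169422, 158306 and 172868 in WT livers. The Elovl6 log2 difference between HP1ag_KO and WT was 0.04 ± 0.22, within an interval of -0.46 to 0.55. For Scd1 the same difference was 0.21 ± 0.20 and the groups overlapped, with HP1ag_KO replicate 2 highest of all livers. HP1ag_KO livers lay above both HP1a_KO livers in Scd1 (0.34 ± 0.22, limma adjusted p = 0.483).

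Among the regulators in the set, Mlxipl (chr5:135089890-135138382) had 2956, 4775 and 3189 normalised reads in HP1ag_KO livers, 2374 and 2485 in HP1a_KO livers and 2615 in the HP1ab_KO liver, against 2501, 3193 and 3073 in WT livers. HP1ag_KO livers and WT livers were all above the HP1a_KO livers, WT replicate 1 only slightly. The log2 difference was 0.55 ± 0.20 for HP1ag_KO against HP1a_KO (limma adjusted p = 0.252), 0.29 ± 0.18 for HP1ag_KO against WT (adjusted p = 0.735) and -0.26 ± 0.20 for HP1a_KO against WT (adjusted p = 0.67). Leaving out 1 library moved them between 0.34 and 0.68, between 0.079 and 0.43, and between -0.37 and -0.19. Thrsp (chr7:97412938-97417730), a small lipogenic protein whose transcript responds to thyroid hormone and carbohydrate, had 3162, 8153 and 11189.7 in HP1ag_KO livers, 6027 and 7233 in HP1a_KO livers and 7485 in the HP1ab_KO liver, against 12935, 9244 and 4484 in WT livers. Its spread within HP1ag_KO and within WT was wider than any difference between groups, and the log2 difference of -0.30 ± 0.51 between HP1ag_KO and WT turned to 0.22 with the term for runs of animal numbers.

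In HP1a_KO against WT, 2 of the 10 genes did not overlap between groups, Pnpla3 above and Mlxipl below, where 29.9% of all genes did not. The median log2 difference over the 10 was 0.14, with 6 above 0 (49.7% of all genes), and 0 had an unadjusted p under 0.05 (10.1% of all genes). For the single HP1ab_KO liver, Pnpla3 lay above and Scd1 below all WT livers (47.5% of all genes lay outside the WT range), and the median was -0.013. In HP1ag_KO against HP1a_KO, Pnpla3, Scd1, Acly and Mlxipl lay above and Me1 below without overlap, 5 of 10 where 36.7% of all genes did so, and 2 had an unadjusted p under 0.05 (16.2% of all genes). DESeq2 called 0 of the 10 in these 3 comparisons, where it called 0.712%, 0.0796% and 3.37% of all genes. The spread assigned to the single HP1ab_KO liver was that of the other genotypes.

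Levels of several genes followed Fasn from liver to liver. Over the 9 livers Pearson's r with Fasn was 0.78 for Pnpla3 (exact permutation p = 0.0134, adjusted over 9 relations 0.0601) and 0.77 for Acly (p = 0.0125, adjusted 0.0601), with Spearman's rho of 0.62 (permutation p = 0.0857) and 0.73 (permutation p = 0.0311). Acacb (r = 0.69), Mlxipl (0.59), Acaca (0.48) and Scd1 (0.37) were also positive, and r was 0.078 for Me1, -0.0050 for Elovl6 and -0.20 for Thrsp. Without the livers farthest from the median of Fasn, HP1ag_KO replicate 2 and WT replicate 1, r was 0.38 for Pnpla3, 0.37 for Acly, -0.046 for Acacb and -0.0095 for Mlxipl over 7 livers. The relations of these 4 genes over all livers rest on those livers, and r for Acaca was 0.76 without them. Leaving them out also narrows the range of Fasn. Within groups, after the group means were taken off, r was 0.86 for Acly (permutation p = 0.0037, adjusted 0.0337) and 0.42 for Pnpla3 (permutation p = 0.26). These p-values permute all 9 residuals as if they were exchangeable. The single HP1ab_KO liver has no residual of its own, and the HP1a_KO residuals mirror each other. The p-values within groups are therefore not exact and may be too small.

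**Figure D4:**
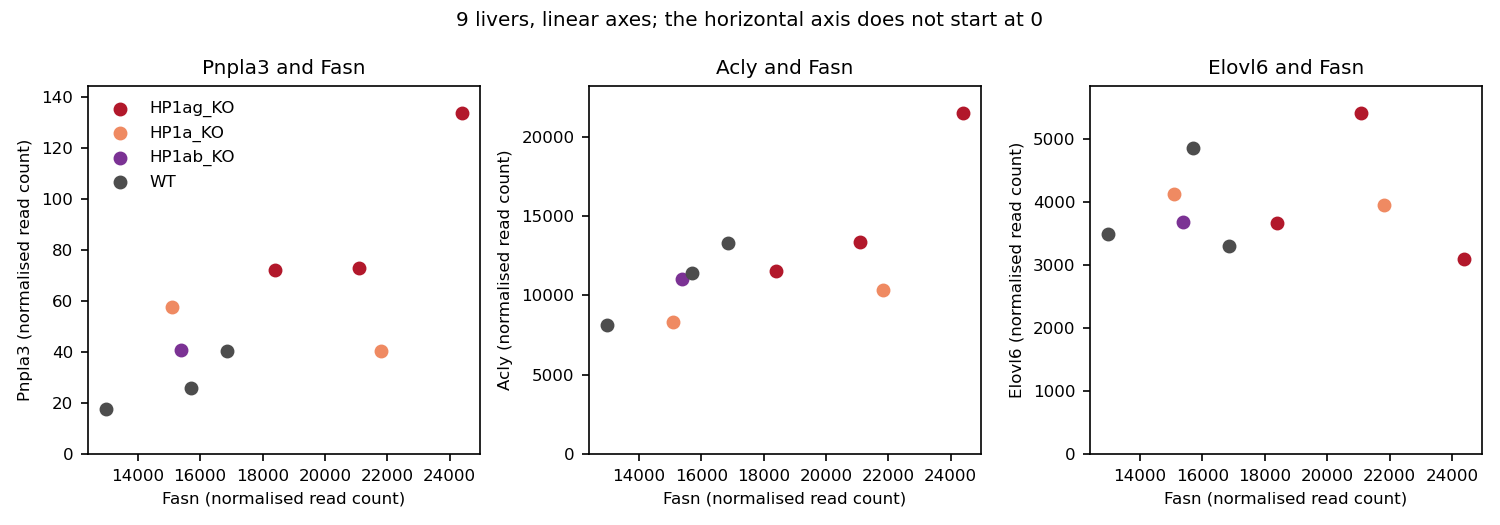
Normalised read counts of Pnpla3, Acly and Elovl6 against Fasn in 9 livers, 1 point per liver, coloured by genotype, with the vertical axes from 0. Pnpla3 (r = 0.78) and Acly (r = 0.77) reach their highest value in HP1ag_KO replicate 2, the liver with the most Fasn, whereas Elovl6 (r = -0.0050) does not follow Fasn.

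The genes most like Pnpla3 over the 9 livers, among 10652 genes with a mean of at least 50, were Smo (r = 0.93), Colec11 (0.93), Itsn1 (0.91), Gps2 (0.91) and Mrpl3 (0.90). Smo, the Hedgehog signal transducer, had 464, 487 and 362 normalised reads in HP1ag_KO livers and 204, 263 and 354 in WT livers. Those most like Fasn were Glce (0.96), Fam126a (0.92), Cpsf3 (0.91), Sh3gl1 (0.91) and Ccdc68 (0.90). None of the 10 genes was among them, and these values describe likeness in 9 libraries only.

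Levels of the genes that control the pathway gave no call against WT. Limma called 0 of 21 regulators of lipogenesis in any comparison, with 7 higher and 14 lower in HP1ag_KO than in WT livers and a median log2 difference of -0.06. DESeq2 called 0 of the 21 against WT, and 1 of them higher in HP1ag_KO than in HP1a_KO livers, where it called 3.37% of all genes. Srebf1 had 3281, 5068 and 6685 normalised reads in HP1ag_KO livers and 6502, 5428 and 4062 in WT livers. It spread within groups as Thrsp did, with HP1ag_KO replicate 1 and WT replicate 3 lowest of their groups. Insig1, which retains SREBP in the endoplasmic reticulum, differed by 0.09 ± 0.31 and Nr1h3, which encodes the oxysterol receptor LXRα, by -0.05 ± 0.12.

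Malonyl-CoA is also controlled by AMP-activated kinase, which phosphorylates the carboxylases. Of 10 genes for malonyl-CoA turnover and this kinase, limma called 0, and 3 were higher and 7 lower in HP1ag_KO than in WT livers. Prkaa2, a catalytic subunit of the kinase, had 2393, 2206 and 2792 normalised reads in HP1ag_KO livers, 3901 and 4827 in HP1a_KO livers, and 3671, 3227 and 3630.5 in WT livers. It was below all WT livers in each HP1ag_KO liver, with a log2 difference of -0.51 ± 0.12 (limma adjusted p = 0.447, DESeq2 adjusted p = 0.0679). Against HP1a_KO it was lower by DESeq2 (log2 difference -0.82 ± 0.14, adjusted p = 0.00028). It was the 1 of the 10 so called, where DESeq2 called 3.37% of all genes and limma 0.

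Of 21 genes for carbon and NADPH supply, 11 were higher and 10 lower in HP1ag_KO than in WT livers, and 0 were called by limma. G6pdx, which starts the pentose phosphate route to NADPH, differed by 0.55 ± 0.22 (limma adjusted p = 0.634), Pfkl, a glycolytic phosphofructokinase, by -0.28 ± 0.11 (adjusted p = 0.634) and Pdha1, of pyruvate dehydrogenase, by -0.20 ± 0.08 (adjusted p = 0.634). Pklr, the liver pyruvate kinase, differed by -0.28 ± 0.27 and Mid1ip1, a relative of Thrsp, by 0.20 ± 0.17. Mpc1, a subunit of the mitochondrial pyruvate carrier, had 2987, 2725 and 2494 normalised reads in HP1ag_KO livers, 1923 and 1893 in HP1a_KO livers, and 2174, 2516 and 2744 in WT livers. DESeq2 called it higher in HP1ag_KO than in HP1a_KO livers (log2 difference 0.52 ± 0.12, adjusted p = 0.0228). It was the 1 of the 21 so called, where DESeq2 called 3.37% of all genes and limma 0.

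Among 21 tested genes for elongation, desaturation and activation of fatty acids, 10 were higher and 11 lower in HP1ag_KO than in WT livers, and limma and DESeq2 called 0. Elovl5, an elongase of polyunsaturated fatty acids, had 18811, 20556 and 18098 normalised reads in HP1ag_KO livers, 10489 and 12315 in HP1a_KO livers and 13251 in the HP1ab_KO liver, against 6665, 11899 and 16184 in WT livers. All HP1ag_KO livers were above every other liver, as for Pnpla3, with a log2 difference from WT of 0.82 ± 0.28 (limma adjusted p = 0.59). Hsd17b12, which carries out the ketoreduction step of elongation, differed by -0.31 ± 0.12 (limma adjusted p = 0.619) and Acsm3, a medium-chain acyl-CoA synthetase, by -0.28 ± 0.11 (adjusted p = 0.608). Of 17 genes for glycerolipid assembly, 9 were higher and 8 lower, with a median of 0.00044 and 0 below an unadjusted p of 0.05. Gpat4, a glycerol phosphate acyltransferase, had the smallest p there, at -0.33 ± 0.17 (limma adjusted p = 0.691).

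Of 12 tested genes for other Pnpla proteins and triglyceride lipolysis, 3 were higher and 9 lower in HP1ag_KO than in WT livers, with a median log2 difference of -0.18 and 0 calls by limma or DESeq2. Pnpla2, the main triglyceride lipase of the family, had 1517, 1182 and 1302 normalised reads in HP1ag_KO livers and 1662, 1651 and 952 in WT livers, a log2 difference of -0.05 ± 0.22. Pnpla8, a mitochondrial and peroxisomal phospholipase, differed by -0.23 ± 0.09 (limma adjusted p = 0.619), and Abhd5, the activator of Pnpla2, by -0.55 ± 0.27 (adjusted p = 0.67). Hsd17b13, a lipid droplet protein of hepatocytes, differed by -0.17 ± 0.09 (limma adjusted p = 0.689).

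Cholesterol synthesis runs beside fatty acid synthesis under SREBP-2, a relative of SREBP-1c. In HP1a_KO against WT, 19 of 20 of its genes were higher, with a median log2 difference of 0.52, and in HP1ag_KO against WT 16 were higher with a median of 0.06. Hmgcs1, the synthase at the start of the pathway, had 21125 and 8795 normalised reads in HP1a_KO livers against 4259, 4732 and 7467 in WT livers, and DESeq2 called it (log2 difference 1.36 ± 0.39, adjusted p = 0.0262). Limma called 0 of the 20. In HP1a_KO against WT, DESeq2 called 1 of them and 0.712% of all genes. Of 13 fasting response genes, 11 were higher in HP1a_KO than in WT livers, with a median of 0.40, and 9 in HP1ag_KO, with a median of 0.16, and 0 were called by limma or DESeq2. Fgf21, the fasting hormone, had 306 and 1059.9 in HP1a_KO livers against 38.2, 128 and 28.1 in WT livers (limma adjusted p = 0.432).

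Clock genes, which follow the hour of the day, differed widely between livers of the same genotype. Dbp had 334, 50.5 and 2818 normalised reads in HP1ag_KO livers, 1961 and 2004 in HP1a_KO livers and 2384 in the HP1ab_KO liver, against 2755, 3036 and 68.4 in WT livers. Arntl (BMAL1) ran the other way, with 247, 916 and 80.4 in HP1ag_KO livers and 26.7, 67.6 and 848 in WT livers. HP1ag_KO replicates 1 and 2 and WT replicate 3, which share a run of animal numbers, were thus low in Dbp and high in Arntl. Elovl3, an elongase, had 364, 17453 and 3619.5 in HP1ag_KO livers and 2404, 3452 and 16866 in WT livers, with its highest values in HP1ag_KO replicate 2 and WT replicate 3. Pnpla3 was highest within its group in these same livers, at 133 in HP1ag_KO and 40.3 in WT, and Fasn, Acly, Scd1 and Acacb were too. HP1ag_KO replicate 1, with Dbp at 334, was instead lowest of its group for Pnpla3 (72.0), Fasn (18388) and Acly (11538). Its Scd1 (176683) and Acacb (4113) lay between those of the other HP1ag_KO livers. HP1ag_KO replicate 3 had Dbp at 2818 and Pnpla3 at 72.9 normalised reads. WT replicates 1 and 2 had Dbp at 2755 and 3036 and Pnpla3 at 17.8 and 25.7. The part of the clock state in these levels was not tested.

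**Figure D5:**
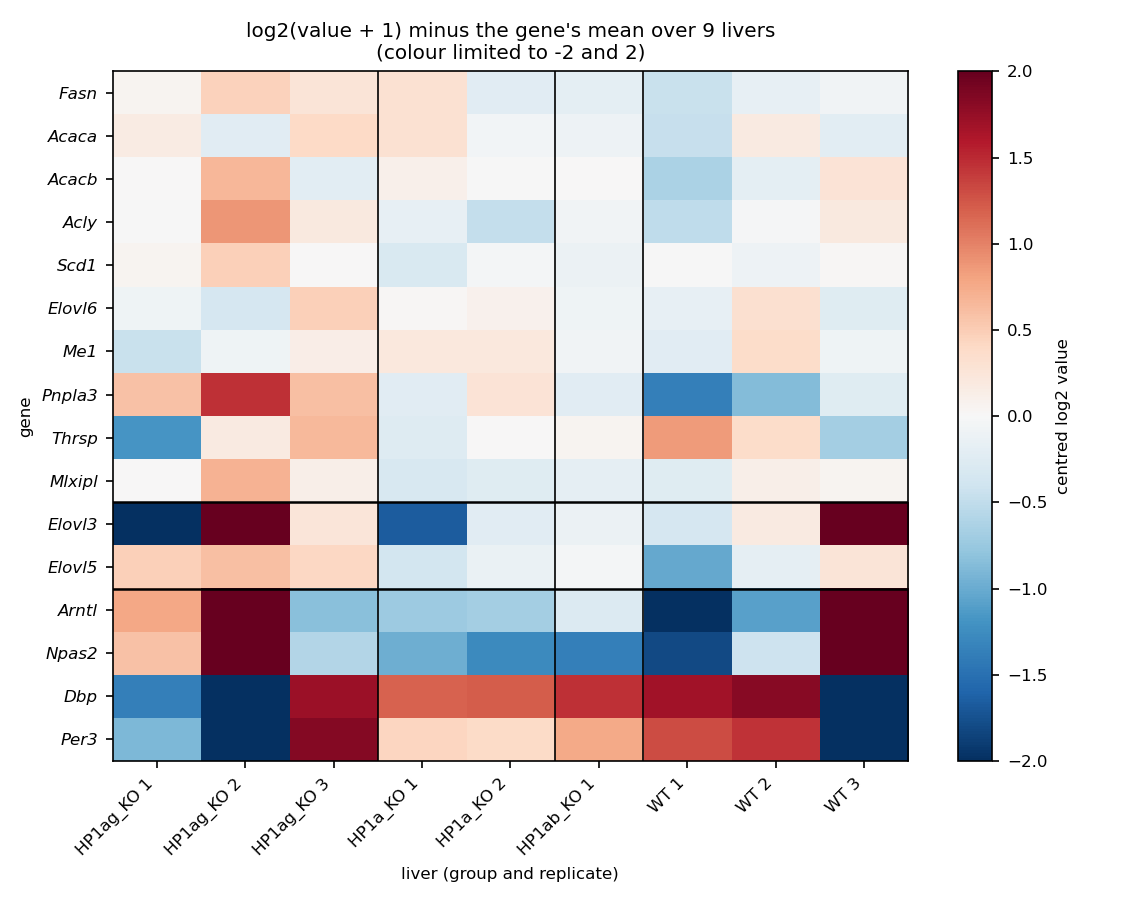
Colour map of log2(value + 1) minus each gene's mean over 9 livers, with the 10 genes on top, the elongases Elovl3 and Elovl5 in the middle and the clock genes Arntl, Npas2, Dbp and Per3 below, and livers in columns by group. Colours are limited to -2 and 2. Arntl and Npas2 are high and Dbp and Per3 low in HP1ag_KO replicates 1 and 2 and WT replicate 3, and Pnpla3 is lowest in WT replicate 1.

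All 10 Kupffer cell markers were higher in HP1ag_KO than in WT livers (median log2 difference 0.22) and in HP1a_KO than in WT livers (0.57), with summed levels of 15026 to 21737 normalised reads in HP1ag_KO, 20401 to 23861 in HP1a_KO and 23465 in HP1ab_KO, against 13679 to 16317 in WT livers. In HP1a_KO against WT, DESeq2 called 1 of these 10 markers, where it called 0.712% of all genes. By limma, 8 had an unadjusted p under 0.05 there (10.1% of all genes). Both counts were 0 in HP1ag_KO against WT (0.716% and 7.58% of all genes). The liver with the most Pnpla3, HP1ag_KO replicate 2, had the lowest sum of its group, 15026, which lay within the WT range. Of 8 stellate cell and fibroblast markers, 5 were higher in HP1ag_KO than in WT livers (median 0.29) and 7 in HP1a_KO than in WT livers (0.52), where DESeq2 called Col1a1 and Col1a2, with sums of 11090 to 13160 in HP1ag_KO, 13862 to 16025 in HP1a_KO and 14373 in HP1ab_KO, against 7746 to 12921 in WT livers. The 6 neutrophil markers summed to 21.3 to 133 in HP1ag_KO, 191 to 224 in HP1a_KO and 121 in HP1ab_KO, against 31.1 to 44.8 in WT livers, and DESeq2 called S100a8 higher in HP1a_KO than in WT livers. All 5 erythroid markers had a lower mean in HP1ag_KO than in WT livers (median -0.40), with sums of 5138 to 8533 in HP1ag_KO, 10251 to 12055 in HP1a_KO and 17997 in HP1ab_KO, against 6937 to 16605 in WT livers. The part of these cells in the levels of the 10 genes was not tested.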

How the data were processed

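Per the labels' protocols, ribosomal RNA was removed from total RNA of frozen liver pieces and stranded libraries were sequenced. Tools named in the submitters' processing notes, with no role given, are HTSeq 0.5.4p3, DESeq2 1.0.19, Bowtie2 2.1.0, TopHat2 2.0.10 and CASAVA 1.8.2, and the build is mm10 (GRCm38). The authors deposited a normalised signal, that is, counts divided by a size factor, as the steps of the values show. The sources used here give neither the annotation release nor the strand setting, so overlapping genes may share reads. Whole reads were recovered for 100% of values at a tolerance of 0.1 read, and library totals were 16266423 to 36161177 reads. Their number limits the precision of low genes such as Pnpla3, and Poisson intervals cover counting error only.

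The 13845 genes whose mean over 9 libraries reached 10, all 10 members included, were tested two-sided with limma 3.58.1 (R 4.3.3, limma-trend) on log2(value + 1), which understates differences of low genes. A single model held the 4 groups, with 5 residual and 3.13 prior degrees of freedom, and calls were made below an adjusted p (Benjamini-Hochberg, all genes of a comparison) of 0.05. Standard errors (±) of log2 differences come from this fit. The limma p-values set a difference of group means against the spread between animals within groups. That spread is pooled over the genotypes and moderated over all genes, and the single HP1ab_KO liver adds nothing to it. The recovered reads were also tested with edgeR 4.0.16 and DESeq2 1.42.0. Correlations and the 6 against 3 comparison used exact permutation tests (scipy 1.17.1, Python 3.11.15, numpy 2.4.6, pandas 2.3.3, matplotlib 3.10.9). For correlations with group means taken off, the permutation p is not exact. The fit was tried on simulated data.

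The members and the gene lists beside them were chosen with earlier results of these data known. Named were all 10 members and, of each list, up to 4 genes with the smallest limma p against WT in HP1ag_KO or HP1a_KO livers, plus genes needed for roles; Elovl3, Per3 and Npas2 were shown for their spread between livers. Some genes of these lists are not reported here. Coordinates and exon lengths are from GENCODE annotation of GRCm38, and promoters from RefSeq. Alternatives covered the pseudocount, filter, scaling, trend, groups in the fit, count tests, runs of animal numbers and each replicate left out.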

Additional observations from a re-analysis of the deposited data

How the results depend on the processing

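Of 787 refits of the 50 differences of single genes (10 genes in 5 comparisons), 740 kept direction and side of the threshold, 43 reversed direction and 4 passed the threshold, all of Pnpla3 in HP1ag_KO against WT by DESeq2 (with all libraries, and without HP1ag_KO replicate 1, HP1ag_KO replicate 3 or WT replicate 3). The DESeq2 fits without a library or with the term for runs were chosen after seeing the data. Pnpla3 in that comparison had its lowest log2 difference, 1.35, with the run term. DESeq2 called 99 genes in HP1ag_KO against WT, 87 in HP1a_KO against WT, 11 in HP1ab_KO against WT, 46 in all mutant livers against WT and 457 in HP1ag_KO against HP1a_KO, where limma called 0, and 1 of the 10 genes. Its 99 calls became 40 without WT replicate 1, 75 to 95 without any other single library of those groups, and 34 with the run term. With a pseudocount of 5, limma called 1 gene in HP1a_KO against WT. Without a filter it called 54 in HP1ab_KO against WT, and without the trend 7 in HP1ag_KO against HP1a_KO. Leaving out 1 library gave 0 to 2 calls in HP1ag_KO against WT, 0 to 5 in HP1a_KO against WT, 0 to 2 in HP1ab_KO against WT, 0 to 1 in all mutants against WT and 0 to 5 in HP1ag_KO against HP1a_KO. The permutation test, not adjusted over the 10 genes, passed for 0 to 1 gene, and Pnpla3 had p = 0.107 without WT replicate 1 or 2, where the smallest possible is 0.0357. With group means taken off, 1 correlation with Fasn passed (Acly), by a permutation p that is not exact for such residuals and may be too small. The causes of these shifts were not tested. Thrsp in HP1ag_KO against WT reversed with the term for runs (0.22), a fit in which WT replicate 1 does not enter the difference. Reversed with all libraries in HP1ag_KO against HP1a_KO were Acaca (0.077 with equal totals, 0.00289 by edgeR, 0.00462 by DESeq2), Elovl6 (0.060, 0.014 and 0.015 likewise) and Thrsp with TMM (-0.000708). Reversed without 1 library were 23 differences, all with an unadjusted p above 0.05 with all libraries. Their ranges in HP1ag_KO against WT were -0.18 to 0.22 for Elovl6, -0.28 to 0.026 for Me1 and -0.73 to 0.23 for Thrsp. In HP1a_KO against WT they were -0.027 to 0.25 for Elovl6 and -0.73 to 0.036 for Thrsp. In HP1ab_KO against WT they were -0.080 to 0.24 for Acaca, -0.035 to 0.42 for Acacb, -0.16 to 0.19 for Acly, -0.16 to 0.12 for Elovl6, -0.080 to 0.11 for Fasn, -0.21 to 0.092 for Me1 and -0.55 to 0.22 for Thrsp. In all mutants against WT they were -0.025 to 0.33 for Acly, -0.067 to 0.21 for Elovl6, -0.15 to 0.15 for Me1, -0.10 to 0.10 for Mlxipl, -0.048 to 0.11 for Scd1 and -0.70 to 0.067 for Thrsp. In HP1ag_KO against HP1a_KO they were -0.20 to 0.16 for Acaca, -0.15 to 0.29 for Acacb, -0.26 to 0.14 for Elovl6, -0.045 to 0.49 for Fasn and -0.38 to 0.53 for Thrsp. No paired analysis was possible because the labels give no replicate numbers shared between groups. The run term is a block on runs of animal numbers, whose meaning the labels do not state.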
